A study of Oryzias latipes with 2 samples.

Results

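The genes described here are the 150 genes of the medaka (Oryzias latipes) pituitary whose RNA was read almost wholly from introns. They were chosen by their intron share, which is the intron UMIs of a gene divided by its UMIs in the exon, intron and spanning tables together. A UMI (unique molecular identifier) tags 1 captured RNA molecule. A gene could be chosen when it had 500 or more such UMIs in each sex outside the red blood cells and was not in the authors' marker gene tables. This left 2744 eligible genes of the 19375 genes found in any table of both libraries. The 150 with the highest intron share in the lower of the sexes are called members here, and the remaining 2594 are called other eligible genes. Since the intron share outside the red blood cells chose the members, its values there are given as a description and without a test.

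The cells came from dissociated pituitaries of adult fish of about 8 months. Every fish was of the line d-rR lhb:GFP, in which the promoter of lhb, the gene for the beta subunit of luteinizing hormone, drives green fluorescent protein, so that no group was without the transgene. The female group was 1 library of 24 pooled pituitaries and the male group 1 library of 23 pooled pituitaries, both made with the 10x Genomics Chromium Single Cell 3′ kit, v2. With 1 library per sex there are no replicates, the fish cannot be told apart, and sex cannot be told apart from library.

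The female library held 2592 cells, of which 371 were annotated as red blood cells, and the male library 3804 cells, of which 559 were. The cells outside the red blood cells had a median of 4331 UMIs in the 3 tables in the female library and 4117 in the male library. In those cells introns gave 13.0% of all UMIs in the female library and 11.8% in the male library. In both libraries each of the 7 genes lhb, fshb, tshba, prl, gh, sl and pomca was highest in the cell type named for its hormone, with pomca highest in melanotropes and next in corticotropes. Both libraries held 16 of the barcodes, or 0.617% of those in the female library and 0.421% in the male library. All intervals below are exact 95% intervals that cover counting error only.

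As background, a gene is first copied with its introns, the stretches that splicing then cuts out, and the spliced messenger RNA of the cytoplasm holds exons alone. Droplet methods prime on runs of A, mainly the poly(A) tail, and reads inside introns come from RNA that has not been spliced, from retained introns, or from transcripts that lie within an intron and have no annotation of their own. A gene counted from exons alone is invisible where its reads are in introns. The gene lists in the files pair the members' Ensembl identifiers with no symbol, and 0 of the 150 were matched in the RefSeq gene table, so the members appear here by identifier and no function is given for them. The identifiers named were picked after their values had been seen, as those at the ends of each ranking.

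Among the members the intron share had a median of 97.5% in the female library, within 92.0 to 100%, and a median of 97.7% in the male library, within 92.0 to 100%. Over all eligible genes the median of the lower share was 4.36%, and 563 of the 2744 (20.5%) had more than 50 in 100 of their UMIs in introns in both sexes. The members were thus the upper end of a group of genes and not a separate one. In the lower of the sexes, 37 members were above 99%, 79 lay between 95 and 99%, and 34 were at or below 95%. Just inside the limit were ENSORLG00000009718 at 92.12%, ENSORLG00000014606 at 92.05% and ENSORLG00000026809 at 92.04%. Just outside it were ENSORLG00000029774 at 91.98%, ENSORLG00000014469 at 91.86% and ENSORLG00000005227 at 91.78%, so that no gap separated the 2 sides.

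**Figure D1:**
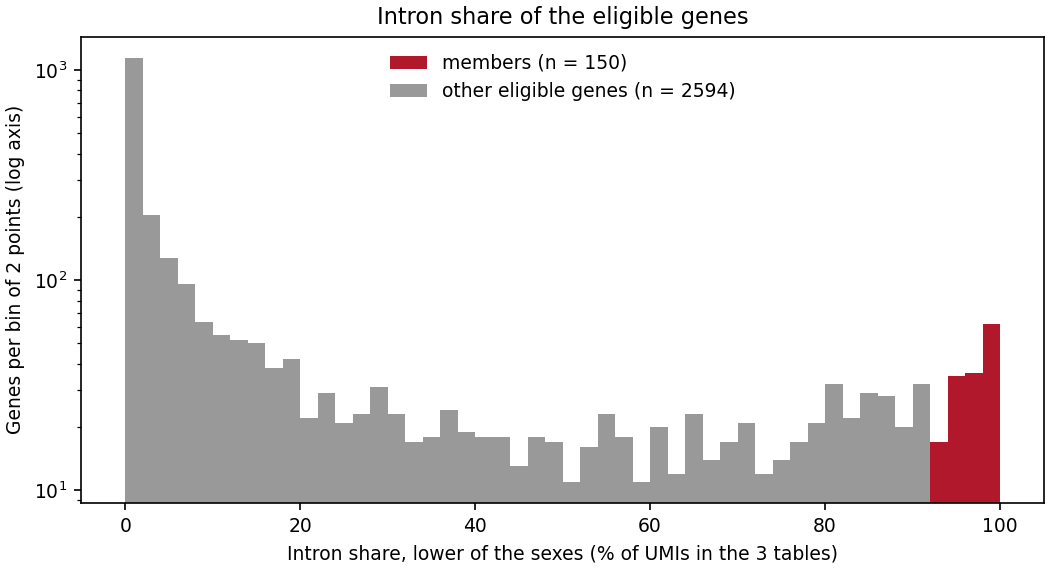
Histogram of the intron share (x axis, percent of the UMIs in the 3 tables, lower of the sexes) of the 2744 eligible genes, with the number of genes in bins of 2 points on a log y axis. Red marks the 150 members and grey the other 2594. Most genes sit near 0%, the middle of the axis is thinly filled, and the members form the right edge of a rise above 80%.

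Summed over the members, 464441 of 471545 UMIs were intronic in the female library and 625980 of 634925 in the male library. This is 98.5% (98.46 to 98.53%) in females and 98.6% (98.56 to 98.62%) in males. The other eligible genes had 8.402% in females and 8.18% in males, counted the same way. In 7 members no exon or spanning UMI was found in either sex. The most counted of these was ENSORLG00000006145, with 30951 intron UMIs in the female library and 24566 in the male library. The least counted in the female library was ENSORLG00000022013, with 546 intron UMIs in females and 635 in males. With no other UMI among them, the intron share of the first is at 99.988% or more in females and 99.985% or more in males by the lower limits of the exact intervals.

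The intron shares of the sexes are set side by side as a description, since the rule placed both above 92% and so limited their distance. The female and male values lay less than 1 percentage point apart in 120 of 150 members, with a median distance of 0.46 points, against 0.60 points over all eligible genes. The exact intervals of the sexes did not overlap in 13 members (8.67%), and in 10.9% of all eligible genes. The share was higher in females in 3 of the 13 and higher in males in 10. The widest distance was in ENSORLG00000012747, at 92.4% (90.7 to 93.9%) in females and 96.0% (94.9 to 96.9%) in males. In the other direction, ENSORLG00000009072 was at 99.5% (99.4 to 99.6%) in females and 98.0% (97.7 to 98.4%) in males.

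The red blood cells were left out when the members were chosen, so their reads had no part in the choice, though they come from the same libraries. With 20 or more UMIs in the red blood cells, 32 members could be read in the female library and 38 in the male library. Their median intron share there was 100% in females and 99.3% in males, while over the other eligible genes with as many UMIs it was 0% in females (548 genes) and 0.07% in males (791 genes). It was above 90% in 31 of the 32 members in females and in 36 of the 38 in males. The lowest was ENSORLG00000028323, at 84.0% in females and 82.1% in males. Summed over all members, 6285 of 6334 UMIs were intronic in the female red blood cells (99.2%, 98.98 to 99.43%) and 8424 of 8492 in the male ones (99.2%, 98.99 to 99.38%). Red blood cells were shallow, with a median of 518 UMIs in females and 503 in males, and in them too the members were read from introns. Hormone RNA of other cell types was also counted in them, as given below for prl. How much of the members' RNA there came from other cells was not tested.

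The members were nearly absent from the deposited gene by cell matrix. They had 8745 UMIs in the female matrix, which is 1.85% of their 471545 UMIs in the 3 tables, and 10867 in the male matrix, which is 1.71% of 634925. The median over the members was 2.98% in females and 2.67% in males. For the other eligible genes the matrix held 100.4% of the UMIs in the 3 tables in females and 98.6% in males, with a median over genes of 97.6% in females and 97.0% in males. In 59 members in females and 62 in males the matrix count equalled the exon and spanning UMIs exactly. The rule chose genes with few such UMIs, so the near absence of the members from the matrix largely follows from the choice. It is given as a description. There were 6 members in females and 9 in males with no UMI in the matrix at all. The highest ratio of the matrix to the 3 tables among the members was 26.4% in females and 18.4% in males. A level of these genes from the matrix therefore rests on few UMIs, and the levels below are from the 3 tables unless stated.

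**Figure D2:**
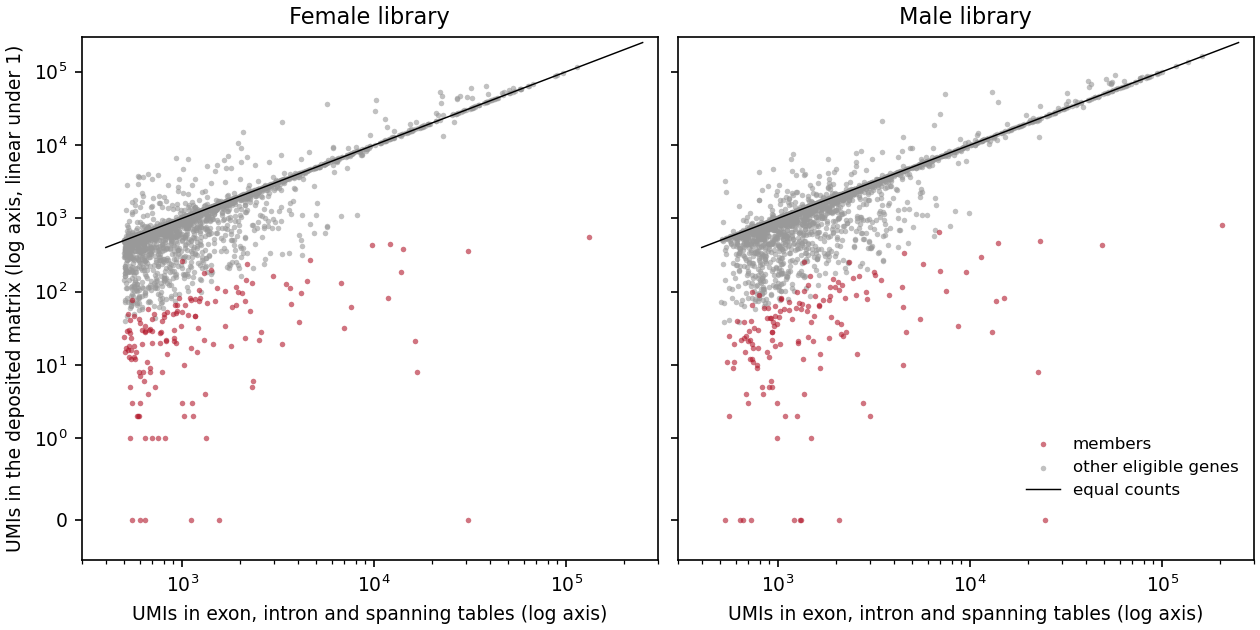
UMIs of each eligible gene in the deposited matrix (y axis, log scale, linear under 1) against its UMIs in the exon, intron and spanning tables (x axis, log scale), outside the red blood cells, with the female library on the left and the male library on the right. Red points are the 150 members, grey points the other 2594 genes, and the line marks equal counts. The members lie far under the line, with 6 of them at 0 in the female and 9 in the male matrix.

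The members together carried much of the intronic RNA that was counted. They held 29.8% of all intron UMIs in the female library and 28.8% in the male library, and 3.92% of the UMIs of all 3 tables in females and 3.45% in males. Most members were low. Outside the red blood cells 96 members in females and 99 in males were below 1 UMI per 10000 UMIs of the 3 tables, the scale of all levels here, and 8 in females and 5 in males were at 10 or more. The median over the members was 0.77 UMIs per 10000 in the female library and 0.70 in the male library.

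A single gene, ENSORLG00000026256, had more UMIs than the next 4 together. It had 130812 intron, 382 exon and 161 spanning UMIs in the female library, and 204957 intron, 681 exon and 88 spanning UMIs in the male library. These are 27.9% of all member UMIs in females and 32.4% in males, and 8.38% of the intron UMIs of all genes in females and 9.42% in males. The 5 most counted members had 47.9% of the member UMIs in females and 51.1% in males, and the 10 most counted had 61.0% in females and 61.6% in males. The next most counted in males was ENSORLG00000027558, at 26.5 UMIs per 10000. In females it was at 25.6, just under ENSORLG00000006145 at 25.8. Sums over the members therefore follow a few genes, and they are given below with and without the first.

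The intron share varied little between cell types. It was taken per gene in each type with 50 or more UMIs of the gene. No member had a range over types of 20 percentage points or more in both sexes, against 5.87% of the eligible genes, and a range this wide is hard to reach for genes chosen to lie above 92%. Summed over the members, the share ran over the types other than red blood cells within 97.7% (macrophages) to 98.7% (lactotropes) in females and within 98.0% (macrophages) to 98.8% (corticotropes) in males. The 15 macrophages of each library had 817 member UMIs in females and 1033 in males, and their intervals reached 98.6% in females and 98.7% in males. Without ENSORLG00000026256, the most counted member, macrophages stayed lowest, at 97.40% in females and 97.36% in males. The highest types were then Fsh gonadotropes in females, at 98.27%, and uncharacterized cells in males, at 98.30%. Over all genes the intron share ranged within 7.25% (melanotropes) to 15.6% (cga-expressing cells) in females and within 5.04% (melanotropes) to 16.2% (lactotropes) in males.

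The widest range in the lower of the sexes belonged to ENSORLG00000024433. It was read from introns at 86.8% (76.4 to 93.8%) in female and 83.3% (72.1 to 91.4%) in male uncharacterized cells. In lactotropes, where it was highest, the share was 97.2% (94.1 to 98.98%) in females and 97.8% (96.5 to 98.8%) in males. Its lowest and highest types were thus the same in both libraries, with intervals that did not overlap. In ENSORLG00000014606 the direction of level and share was the other way. It was highest in somatotropes, with 89.2% of its UMIs intronic in females and 86.3% in males there, and its highest shares in another type were 98.4% in female gonadotrope-like cells and 96.8% in male Lh gonadotropes.

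The members' part of all UMIs was largest in lactotropes, the cells that make prolactin, in both libraries. It was 5.85% of the UMIs of lactotropes in females (5.81 to 5.88%) and 5.29% in males (5.26 to 5.31%). The next types were gonadotrope-like cells in females, at 4.201%, and corticotropes in males, at 3.86%. Among types with 50 or more cells other than red blood cells it was lowest in melanotropes, the cells that make alpha-melanocyte stimulating hormone, at 2.46% in females and 1.56% in males. For red blood cells it was 2.27% in each library.

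Without ENSORLG00000026256 lactotropes no longer stood first. Their part was then 2.81% in females and 2.79% in males, and the highest type was gonadotrope-like cells at 3.28% in females and at 2.81% (2.79 to 2.83%) in males, which in males overlaps the interval of lactotropes (2.77 to 2.80%). Melanotropes stayed low, at 1.79% in females and 1.16% in males. Part of this order was that of the intron reads as a whole. Taken over the intron UMIs of each type in place of all UMIs, the same genes had 24.2% in female and 22.6% in male melanotropes, and 17.8% in female and 16.9% in male lactotropes, so that the order of these 2 types turned.

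**Figure D3:**
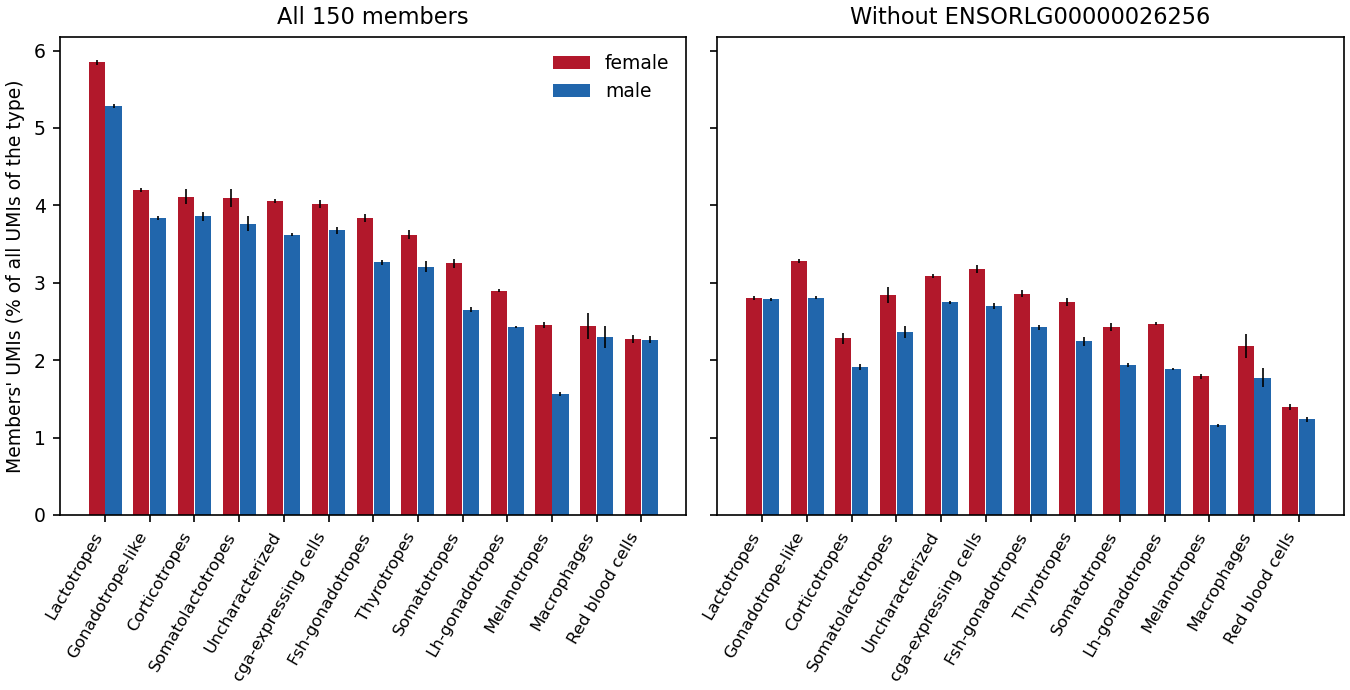
UMIs of the members as a percent of all UMIs in the 3 tables (y axis) in each of the 13 annotated cell types (x axis), with female bars left of male bars and exact 95% intervals for counting error as error bars. The left panel has all 150 members and the right panel leaves out ENSORLG00000026256. Lactotropes lead at 5.85% in females and 5.29% in males in the left panel and are at 2.81% in females and 2.79% in males in the right one.

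ENSORLG00000026256 itself was highest in lactotropes, at 304 UMIs per 10000 in females (302 to 307) and 250 in males (248 to 252). Corticotropes, of which there were 25 female and 55 male cells, came next at 183 in females (176 to 190) and 195 in males (191 to 199). Among the types with 50 or more cells in both sexes the next was Fsh gonadotropes at 97.9 in females and gonadotrope-like cells at 103 in males, which makes lactotropes 3.11 times the next type in females and 2.44 times in males. It was low in Lh gonadotropes, at 42.1 in females and 54.5 in males, and in melanotropes, at 66.5 in females and 40.1 in males. Its intron share was 99.1% or more in each type of the female library with 50 or more of its UMIs and 99.5% or more in each of the male library.

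The same gene was not low in red blood cells. It had 87.8 UMIs per 10000 there in females (84.4 to 91.4) and 103 in males (99.7 to 106), which is 28.9% of the level of lactotropes in females and 41.2% in males. The hormone gene prl, from the matrix, had 21.1 UMIs per 10000 in the female and 37.9 in the male red blood cells, which is 0.85% of its level in lactotropes in females and 1.95% in males. How much of the signal in red blood cells was RNA from outside the cell was not tested. The call of lactotropes also depends on the scale. Per intron UMI in place of all UMIs, lactotropes were 1.78 times the next type in the lower of the sexes, under the 2-fold used here.

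Cell type patterns were counted over the 8 types with 50 or more cells in both libraries, which are Fsh gonadotropes, gonadotrope-like cells, lactotropes, Lh gonadotropes, melanotropes, somatotropes, uncharacterized cells and cga-expressing cells. The same type was highest in both sexes in 111 of 150 members (74.0%), near the 77.2% of all eligible genes. It was also at least 2 times the next type in both sexes in 18 members (12.0%), against 9.15% of the eligible genes. Whether the members or the eligible genes had the larger part depended on the setting. At 1.5 times the next type it was 30 members (20%), against 21.1%. With the exon table only it was 9 members (6%), against 8.64% of the eligible genes. That count cannot decide the question, since the members were chosen for few exon reads and had 3136 exon UMIs in females and 4553 in males. Per intron UMI it was 17 members (11.3%), against 6.09%, with 13 of the 18 among them. That background cannot decide the question either. It counts intron UMIs alone, and the median of the lower intron share over all eligible genes was 4.36%. Of the 18, 7 were highest in cga-expressing cells, 6 in lactotropes, 4 in uncharacterized cells and 1 in somatotropes. Over all eligible genes, members included, the counts were 97, 22, 118 and 7 in the same order of types, and the eligible genes had another 7 in Fsh gonadotropes, melanotropes and gonadotrope-like cells, where the members had none.

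In lactotropes the largest ratio was that of ENSORLG00000003723. It had 9.67 UMIs per 10000 in female (9.20 to 10.2) and 10.6 in male lactotropes (10.3 to 11.0), and the next type, somatotropes, had 1.51 in females and 1.03 in males. The ratio was 6.39 in females and 10.3 in males. In red blood cells it was at 0.11 in females and 0.24 in males, which is 1.11% of the level of lactotropes in females and 2.26% in males, unlike ENSORLG00000026256. The other 4 of the 6 had ratios of 2.34 to 4.36 in the lower of the sexes.

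In the cells that the authors named uncharacterized, the largest ratio to the next type was that of ENSORLG00000007212, at 4.99 in females and 9.41 in males. It had 1.98 UMIs per 10000 there in females (1.80 to 2.18) and 3.59 in males (3.37 to 3.81). ENSORLG00000009203 had more UMIs there, at 25.9 per 10000 in females (25.2 to 26.6) and 33.4 in males (32.8 to 34.1). Lactotropes came next at 8.27 in females and 11.4 in males, and the remaining 6 types had 1.86 or less in females and 3.49 or less in males. The signal in lactotropes lay in 1 of their 2 annotated clusters. Cluster 4 had 14.1 in females and 14.3 in males, and cluster 3 had 0.95 in females and 1.20 in males. ENSORLG00000016970 had the same order, with 15.97 in female and 13.0 in male uncharacterized cells. It had 8.16 in female and 5.54 in male cells of lactotrope cluster 4, and 0.51 in female and 0.30 in male cells of cluster 3. The male uncharacterized cluster 16, of 21 cells, stood apart from the others of that name, with 2.27 UMIs per 10000 of ENSORLG00000009203 against 33.7 and 35.7 in clusters 13 and 14. Whether cells of both kinds captured together had a part in the values of lactotrope cluster 4 was not tested.

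In cga-expressing cells, which carry the alpha subunit shared by the glycoprotein hormones, the largest ratio was that of ENSORLG00000022013, one of the 7 members without any exon or spanning UMI. It had 4.49 UMIs per 10000 in females (3.93 to 5.12) and 3.70 in males (3.25 to 4.19). The next type, gonadotrope-like cells, had 0.44 in both sexes, which gives ratios of 10.2 in females and 8.45 in males. Corticotropes, with fewer than 50 female cells and so outside the comparison, had 0.77 in females and 1.22 in males. The 120 female cga-expressing cells held 226 of its 546 female UMIs, and the 160 male ones held 246 of its 635 male UMIs, red blood cells not counted. It had no UMI in the deposited matrix of either library.

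Somatotropes, the growth hormone cells, had a single such member. ENSORLG00000014606 was at 3.67 UMIs per 10000 in female (3.10 to 4.31) and 3.06 in male somatotropes (2.73 to 3.41), and the next type had 0.93 in females (cga-expressing cells) and 0.52 in males (lactotropes). Types with fewer than 50 cells in a sex were outside these counts. ENSORLG00000015885 was highest there, with 49.1 UMIs per 10000 in the 15 female (45.0 to 53.5) and 19.0 in the 38 male somatolactotropes (17.0 to 21.3). Thyrotropes had 15.9 of it in 69 female and 22.1 in 46 male cells, so that the order of these 2 types differed between the libraries.

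**Figure D4:**
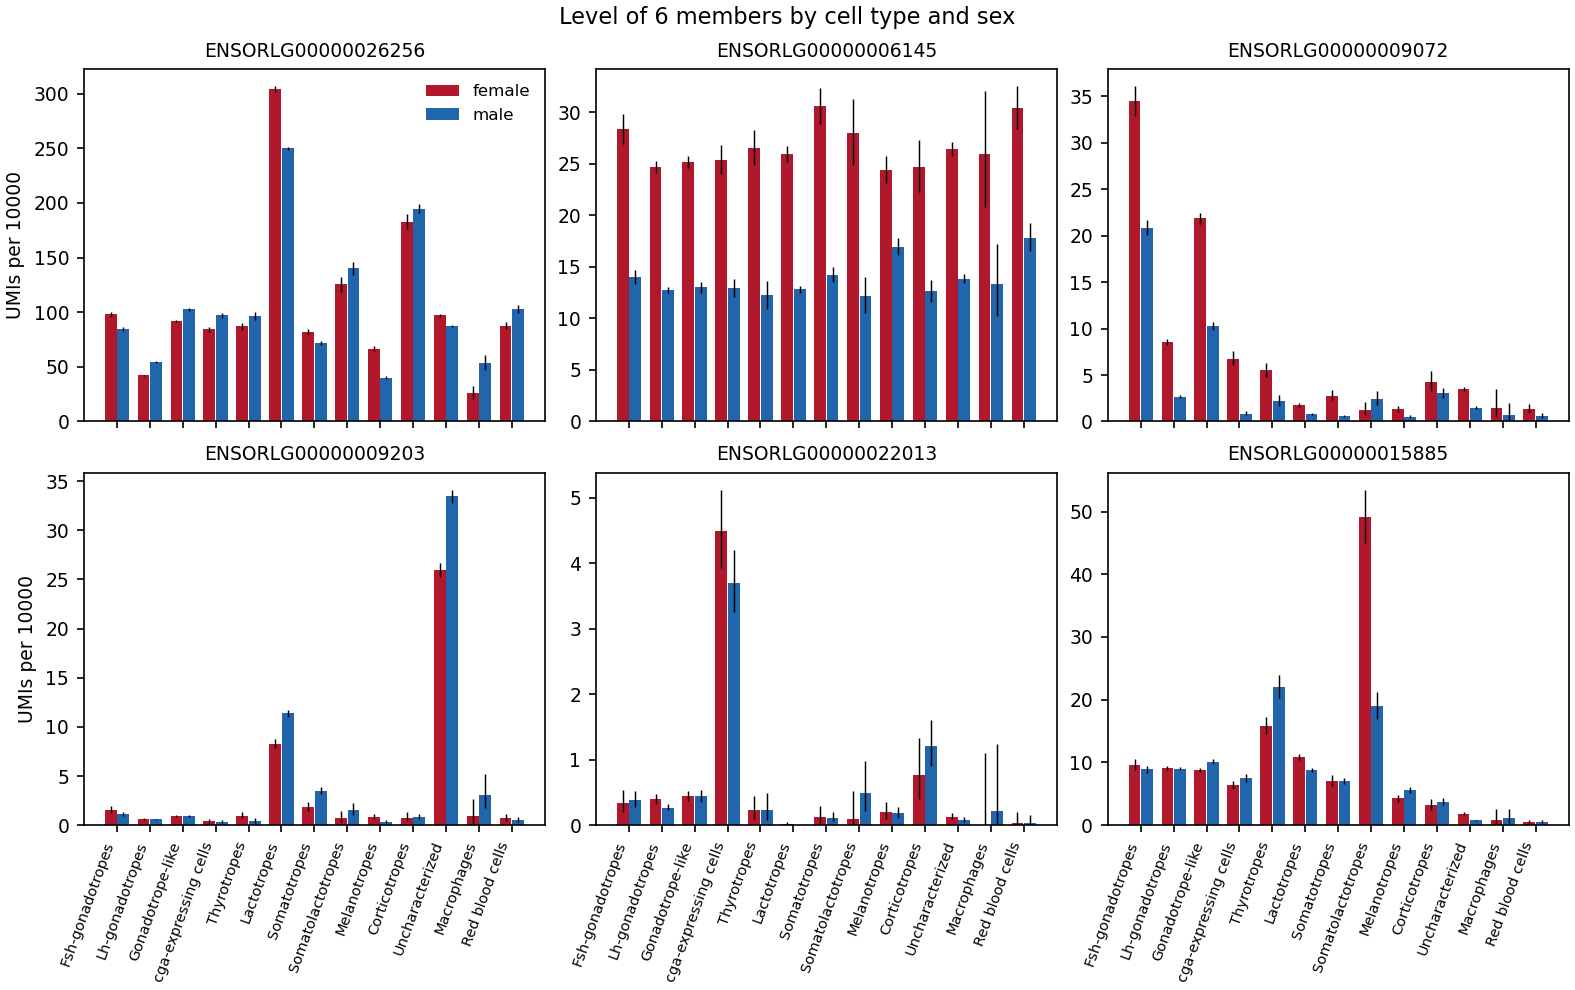
Level of 6 members (y axis, UMIs in the 3 tables per 10000, linear and starting at 0) in the 13 annotated cell types (x axis), with female bars left of male bars and exact 95% intervals for counting error. ENSORLG00000026256 peaks in lactotropes at 304 in females and 250 in males, ENSORLG00000006145 is flat within each sex, and the other 4 peak in Fsh gonadotropes, uncharacterized cells, cga-expressing cells, and somatolactotropes or thyrotropes.

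At the other end, 3 of 150 members (2%) had levels that differed less than 2-fold between the highest and the lowest of 9 groups, the 8 types and the red blood cells, in both sexes. Of all eligible genes 12 (0.437%) did so, these 3 included. ENSORLG00000006145 lay within 24.4 (melanotropes) to 30.6 UMIs per 10000 (somatotropes) in females and within 12.8 (Lh gonadotropes) to 17.8 (red blood cells) in males. ENSORLG00000029506 lay within 12.4 to 15.3 in females and within 6.77 to 9.87 in males, with the lowest level in Lh gonadotropes and the highest in red blood cells in both. ENSORLG00000013939 was lower, within 2.40 to 3.16 in females and 1.31 to 1.82 in males.

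Per cell, the count of the first of these genes went with the depth of the cells. The UMIs of ENSORLG00000006145 per cell lay within 2.29 in red blood cells and 24.9 in melanotropes in females, and within 1.20 and 32.0 in the same groups in males. The mean depth of a cell over the same 9 groups spanned 13.6-fold in females and 28.1-fold in males. The ratio of ENSORLG00000006145 to ENSORLG00000029506 stayed within 1.74 to 2.16 in females and within 1.81 to 2.03 in males. The ratios to ENSORLG00000013939 varied more, within 7.74 to 11.9 in females and 7.12 to 12.2 in males for ENSORLG00000006145, and within 3.98 to 5.99 in females and 3.81 to 6.73 in males for ENSORLG00000029506. One exception stood outside the 9 groups. The 15 female somatolactotropes had 46.6 UMIs per 10000 of ENSORLG00000029506 (42.6 to 50.9) and the 38 male ones 10.2 (8.68 to 11.9). How much of these values was RNA free in the suspension was not tested.

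The members were on balance higher in the female library, but so were the eligible genes. The sexes were compared as the mean, over the 8 types, of the log2 ratio of female to male level, with 1 UMI added to each sum. The median of this mean was 0.22 in the members, with quartiles of 0.07 and 0.43, and 0.12 in all eligible genes. Without cells above the 95th percentile of UMIs, a setting added after seeing the data, the median over all eligible genes was 0.03. The members' median is not given for that setting, so their 0.22 cannot be set against the 0.03. The level was higher in females in all 8 types in 30 of 150 members (20%), against 8.2% of the eligible genes, and higher in males in all 8 in 0 members, against 0.984%. The intron share of all genes was also higher in the female library, at 13.0%, against 11.8% in the male library. Members were read almost wholly from introns, so this difference between the libraries enters their levels when these are taken over all UMIs. With levels taken per intron UMI the number of members that were 2-fold higher in females, given next, was 2 (1.33%), against 0.765% of the eligible genes. Many eligible genes had few intron UMIs, so the added UMI and the library totals weigh more in the 0.765% than in the members. The medians and the parts higher in all 8 types are given over all UMIs only. How much of the members' excess over the eligible genes in them went with the intron share of the library was not tested.

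A mean of 2-fold or more was reached in females by 5 members (3.33%), against 0.62% of the eligible genes, and in males by 0 members, against 0.0729%. The highest was ENSORLG00000009072, at 1.56 on the log2 scale and higher in females in 8 of 8 types. It had 34.5 UMIs per 10000 in female (32.9 to 36.1) and 20.9 in male Fsh gonadotropes (20.1 to 21.7), and 21.9 in female (21.3 to 22.4) and 10.3 in male gonadotrope-like cells (9.81 to 10.7). In Lh gonadotropes it was at 8.52 in females and 2.67 in males. The fold between the sexes, with 1 UMI added to each sum, was 1.65 in Fsh gonadotropes, where its level was highest in both libraries, and 7.79 in cga-expressing cells, at 6.78 in females and 0.86 in males. Fsh gonadotropes were 1.58 times the next type in females and 2.04 times in males, so that it was not among the 18 members above.

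The next was ENSORLG00000005414, at 1.17 on the log2 scale with 0.67 UMIs per 10000 in females and 0.29 in males. Its intron share was 100% in both libraries. The other 3 of the 5 had means of 1.05 or less on the log2 scale, and each of them was under 2-fold per intron UMI. The even genes lay just under this limit, with means of 0.93 for ENSORLG00000006145, 0.90 for ENSORLG00000029506 and 0.95 for ENSORLG00000013939, each higher in females in 8 of 8 types. Among the 12 even genes of the eligible set the mean ranged within 0.14 to 1.09, so that a female excess of this size was also seen in even genes read from exons.

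The lowest mean was that of ENSORLG00000006599, at −0.75 on the log2 scale. It was lower in females in 7 of 8 types, with 0.10 UMIs per 10000 in female (4 UMIs) and 0.40 in male somatotropes (42 UMIs). The second lowest was ENSORLG00000002392 at −0.29, with 2.15 UMIs per 10000 in female and 2.49 in male lactotropes. It was higher in females in 3 of 8 types and differed most in cga-expressing cells (−1.92) and uncharacterized cells (−1.03). Among uncharacterized cells it was at 10.9 in cluster 16, which held 21 male cells and no female ones. In cluster 13 it was at 0.18 in females and 0.10 in males, and in cluster 14 at 0.35 and 0.11. Neither gene had a mean of 2-fold, though ENSORLG00000006599 was at −1.13 once the deepest cells, past the 95th percentile of UMIs, were left out.

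**Figure D5:**
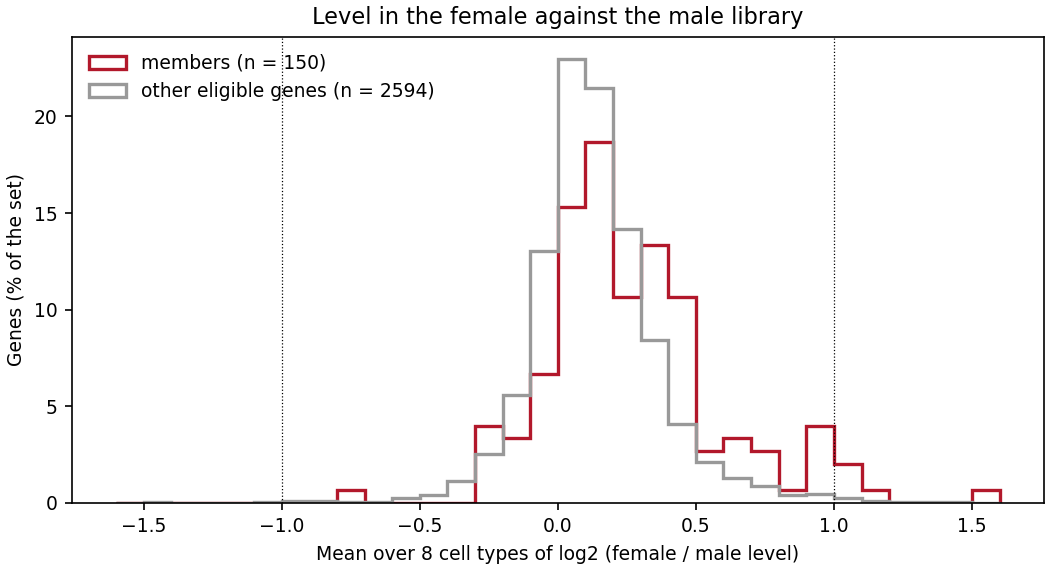
Histogram of the mean over 8 cell types of the log2 ratio of female to male level (x axis, bins of 0.1) as a percent of the genes of each set (y axis). Levels are taken over all UMIs and not per intron UMI. The red line is the 150 members and the grey line the other 2594 eligible genes, and dotted lines mark 2-fold in each direction. The members' median is 0.22 and that of all eligible genes 0.12, with 5 members beyond the right dotted line and 0 beyond the left one.

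Whether the few exonic reads of a member followed its intron reads over the cell types could be asked in 13 members, which had 100 or more exon and spanning UMIs and as many intron UMIs over the 8 types in each sex. The highest type was the same by both kinds of reads in both sexes in 3 of the 13 (23.1%), against 38.8% of the 910 eligible genes past the same minimum. Beyond that minimum the genes were not matched in their counts, so these percentages are no test of a difference. The 3 included ENSORLG00000026256, with lactotropes highest by both, and ENSORLG00000016970, with uncharacterized cells highest by both. In ENSORLG00000005750 they differed. Its 13151 female and 10541 male intron UMIs over these types were highest in somatotropes, and its 370 female and 285 male exon and spanning UMIs in gonadotrope-like cells, in both libraries. Across the 8 types the correlation of the log2 levels of both kinds had a median of 0.67 in females and 0.84 in males over the 13 members, and of 0.76 in females and 0.86 in males over the other 897 genes, as a description of 8 types that share a library.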

How the data were processed

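For each sex 1 library of single pituitary cells was analysed. The authors deposited UMI counts without normalization, as a matrix and as exon, intron and spanning tables (spanning is not defined in the files), with the cluster and type of every cell, and had left out low quality cells and likely doublets beforehand. The submitters' processing notes name Cell Ranger and Seurat. As the genome build is "not given in the sources used here", no coordinates or sequences are printed. The authors' male marker table also holds deposited signal values (mean expression per cluster) and p-values of their marker test, which were not used.

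Counts were summed over the cells of each type. In males 1 cell with a misspelled type was joined with the Lh gonadotropes. The female library had 9557597 exon, 1581182 intron and 1155130 spanning UMIs, and the male library 15377265, 2203418 and 1180154. Shares have exact Clopper-Pearson and levels exact Poisson 95% intervals. The scripts were tested on simulated data. Members and lists were chosen with earlier results of these data known. Genes were to be named by rank of intron share, UMIs, type ratio, sex ratio and share range, or from gene lists, where they have a symbol. No member has one, so the lists, the endothelial, macrophage and glial markers and gene lengths were not analysed here. Python 3.11.15, numpy 2.4.6, scipy 1.17.1, pandas 2.3.3 and matplotlib 3.10.9 were used.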

Additional observations from a re-analysis of the deposited data

How the results depend on the processing

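No paired analysis was possible because each sex is 1 library and the labels give no replicate numbers. Of the settings tried, the minimum number of UMIs per gene changed the list of members most. With a minimum of 1000 UMIs only 69 of the 150 could still be chosen and 69 were. With 200 UMIs all 150 could be chosen, and 74 of them were among the top 150 of 5837 genes. The pooled intron share was 99.3293% in females and 99.2779% in males without spanning UMIs, 99.335% and 99.2829% with them counted as intronic, 97.4949% and 97.6771% as the median over genes, and in males 98.5529% without cells above the 95th percentile of UMIs. Members called highest in 1 type numbered 9 with the exon table only (6%, 3 of the 18 among them), against 8.64% of the eligible genes, 30 at 1.5 times (20%), against 21.1%, and 8 at 3 times (5.33%), against 2.55%. Per intron UMI they numbered 17, of which 13 were among the 18, so that 5 were lost and 4 gained. Members 2-fold higher in females numbered 11 with the exon table only (7.33%), against 1.28% of the eligible genes, and 2 per intron UMI (1.33%), against 0.765%, with 2 of the 5 among them each time. Both counts from the exon table rest on few reads, 3136 exon UMIs in females and 4553 in males over the 150 members. Where a member had no exon UMI in a type, the added UMI and the library totals alone set its sex ratio. The count of 11 therefore cannot be read as a difference in level. In the same way, the 0.765% per intron UMI rests on few intron reads in many eligible genes. With cells above the 95th percentile left out, a setting added after seeing the data, 1 member (0.667%) was 2-fold higher in males, against 0.255%. The cause of these changes was not tested. The other 24 counts and shares of this kind stayed within 1.5 times the count or within the interval, barcodes found in both libraries left out (added after seeing the data) included. Among these, the list of members still changed in part. Of the 150, 116 were chosen again without spanning UMIs and 111 with them counted as intronic. Without cells above the 95th percentile 119 were, which is all that still had enough UMIs. For the 46 members whose ratio between the sexes was computed again, 4 of 230 values moved by more than the spread over cell types. Of the 230, 6 crossed the 2-fold limit, among them ENSORLG00000006599 at −1.13 without the deepest cells and, per intron UMI, ENSORLG00000005110 at 0.81, ENSORLG00000006783 at 0.88 and ENSORLG00000028159 at 0.87. The sign changed in 20 values of 11 members, all with a mean of 0.15 or less in size in the report, the furthest being ENSORLG00000007212 at −0.55 with all cells pooled. Of 44 type ratios, computed again for 11 of the 18 members, 2 fell below 2-fold, ENSORLG00000006845 at 1.88 and ENSORLG00000026256 at 1.78, both per intron UMI.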
